A study of Callithrix jacchus with 39 samples.

Results

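Peak maps of heart and spleen from the marmoset Callithrix jacchus, a New World monkey of small size, were compared for 2 histone marks. The comparison used 7 of the 39 samples of the series, chosen by what their titles say of tissue, mark and replicate. Heart H3K27ac and spleen H3K27ac had 2 libraries each (replicates 1 and 2), heart H3K4me3 had 1 library (replicate 2) and spleen H3K4me3 had 2 (replicates 1 and 2). Antibody ab4729 was used for H3K27ac and antibody ab8580 for H3K4me3, the TruSeq DNA kit made every library, and no treatment is named. The labels give no strain, age or source animal, so replicate numbers may or may not stand for different animals. The p-values below therefore measure the spread between samples or tissues, which may be technical. The series holds 31 ChIP libraries of 8 tissues, and the 24 libraries of the other 6 tissues (colon, kidney, liver, pancreas, skeletal muscle and stomach) served as background. Its title concerns recently emerged enhancers and variability between individuals, and how far 2 maps share their regions bears on which regions belong to 1 organ.

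H3K27ac, acetylation of lysine 27 of histone H3, marks active promoters and active enhancers. H3K4me3, trimethylation of lysine 4, is found mainly at promoters, where transcription starts, so a region with H3K27ac and no H3K4me3 is usually read as enhancer-like. Enhancers tend to be used in few cell types, whereas promoters of housekeeping genes are active in most. The heart is mostly contractile muscle by mass, with fibroblasts and many vessels. The spleen filters blood and holds lymphocytes, macrophages and vessels. In such whole tissues, fewer cells of a type and less of the mark per cell cannot be told apart, and blood and vessel cells shared by the organs are a candidate source of common regions whose part was not tested. The tissue labels could not be checked against marker genes, because no gene annotation of the files' genome build (calJac3) was used here, and regions are therefore given by position and not by gene.

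The H3K27ac peaks of the 4 libraries were merged wherever they overlapped by at least 1 bp, which gave 53361 regions. A region was called heart-only when both heart libraries and neither spleen library had a peak in it, and spleen-only in the opposite case. These names refer to this pair of organs alone. Heart-only regions numbered 2393 (4.48% of all merged regions), spleen-only regions 6713 (12.6%) and regions in all 4 libraries 11003 (20.6%). Of the rest, 26815 regions were in a single library, 4156 in 3 libraries and 2281 in 1 heart and 1 spleen library. Where a library is said to lack a region, no peak of it was called there, and the mark may still be present below the caller's threshold.

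The heart H3K27ac lists held 26689 (replicate 1) and 24590 (replicate 2) peaks that covered 17.1 and 17.8 Mb. The spleen H3K27ac lists held 35819 and 30663 peaks that covered 28.1 and 23.5 Mb. Both spleen lists were longer than both heart lists, with a log2 ratio of heart to spleen peak number of -0.37, and 2 libraries against 2 could not reach significance (two-sided exact permutation test, p = 0.333, the smallest that the design allows). The H3K4me3 lists held 18231 peaks in heart and 16946 and 18658 in spleen. Reads behind the lists are not given in the files, so depth is unknown and no interval for counting error was computed. Heart H3K27ac replicate 2 stood apart from the other 3 H3K27ac libraries in 1 respect. Of the 4138 regions found in it alone, 24.5% carried heart H3K4me3, against 6.64% of the 5876 regions found in heart replicate 1 alone. For regions found in spleen replicate 1 or 2 alone, the shares with H3K4me3 of spleen replicates 1 and 2 lay between 3.02% and 5.69%. The only heart H3K4me3 library also has replicate number 2, but spleen H3K4me3 replicates 1 and 2 gave the same order, 15.2% and 20.6% for heart replicate 2 alone against 3.20% and 5.46% for heart replicate 1 alone. The cause of this difference was not tested. The main counts and tests are given below with each library left out in turn. Leaving a library out also loosens that organ's rule from 2 libraries to 1 while the other organ still needs both. Classes were therefore also formed from 1 heart and 1 spleen library, for each of the 4 pairs, a setting added after the data were seen. Values for position, peak length, peak strength and clusters are given with all 4 libraries.

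Heart and spleen maps were closer in H3K4me3 than in H3K27ac. Similarity was measured as the Jaccard index, the length shared by 2 lists divided by the length covered by either. For H3K27ac the index between heart and spleen was 0.324 (heart 1 with spleen 1), 0.324 (heart 1 with spleen 2), 0.351 (heart 2 with spleen 1) and 0.365 (heart 2 with spleen 2). Between replicates of 1 organ it was 0.475 in heart and 0.490 in spleen. All 4 values across the organs lay below both values within an organ. For H3K4me3 the index between heart and the spleen libraries was 0.617 and 0.632, close to the 0.661 between the spleen replicates. With mean indices of 0.341 for H3K27ac and 0.624 for H3K4me3, the heart and spleen pair ranked 8 and 4 of the 28 tissue pairs, where 1 is the most similar. All 28 pairs were closer in H3K4me3 than in H3K27ac, so this order is not particular to heart and spleen. The lowest H3K4me3 mean was 0.520 (colon with skeletal muscle) and the highest H3K27ac mean 0.415 (colon with stomach).

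**Figure D1:**
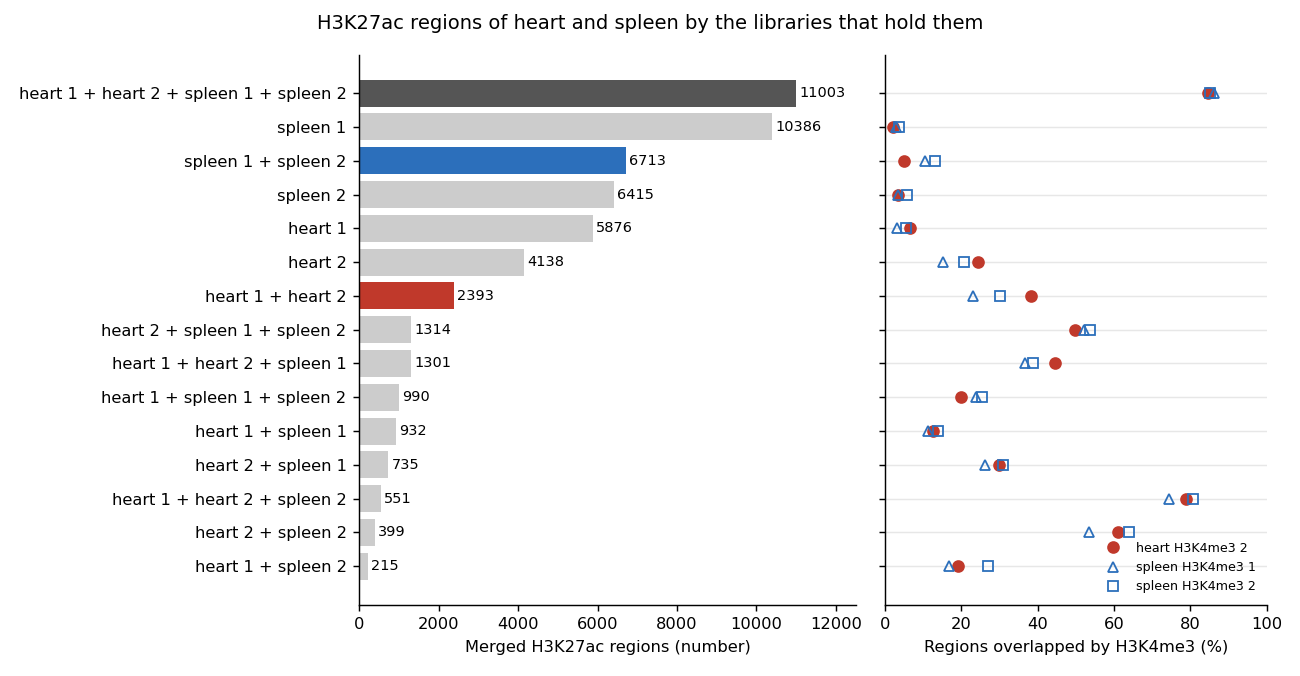
Number of merged H3K27ac regions (left axis panel, count) for each combination of the 2 heart and 2 spleen libraries, and the percentage of those regions overlapped by the heart H3K4me3 library and the 2 spleen H3K4me3 libraries (right panel). Regions in all 4 libraries number 11003 and reach 84.6 to 86.1% on every H3K4me3 library, whereas the 6713 spleen-only regions lie between 4.89% and 13.0%.

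The excess of spleen-only over heart-only regions was 2.81-fold. Of 20020 regions found in both spleen libraries, 33.5% were in neither heart library, and of 15248 regions found in both heart libraries, 15.7% were in neither spleen library. List length moved with this excess. When each list was cut to its 20000 strongest peaks, there were 2139 heart-only and 2870 spleen-only regions, and when all 4 lists were cut to the length of the shortest, there were 2793 and 3882. Spleen-only regions remained the more numerous class under both settings, with a smaller margin. The order turned in 1 setting, since without heart replicate 2 a single heart library was enough and there were 8646 heart-only and 8114 spleen-only regions. Without heart replicate 1 there were 6829 and 7769. Without spleen replicate 1 there were 3806 and 14414, and without spleen replicate 2 there were 2971 and 18020. With 1 library of each organ, spleen-only regions were the more numerous class in all 4 pairs, from 11556 against 16635 for heart replicate 1 with spleen replicate 2 to 7973 against 20243 for heart replicate 2 with spleen replicate 1.

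Regions in all 4 libraries were for the most part promoter-like, and those of 1 organ were not. The heart H3K4me3 library overlapped 84.6% of the regions in all 4, 38.3% of heart-only regions and 4.89% of spleen-only regions. Spleen H3K4me3 replicates 1 and 2 overlapped 86.1% and 85.2% of the regions in all 4, 22.9% and 30.1% of heart-only regions, and 10.5% and 13.0% of spleen-only regions. With the organ's own H3K4me3, heart-only regions differed from regions in all 4 by -46.3 percentage points (1 library), and spleen-only regions by -73.9 ± 2.37 points (SD, n = 2). These are descriptions without a test, since heart has 1 H3K4me3 library.

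H3K4me3 was placed on heart-only regions differently from spleen-only regions. Of the 2393 heart-only regions, 674 (28.2%) carried H3K4me3 in heart and in at least 1 spleen library, 243 (10.2%) in heart alone, 75 (3.13%) in spleen alone and 1401 (58.5%) in neither organ. Of the 6713 spleen-only regions, 298 (4.44%) carried it in both organs, 711 (10.6%) in spleen alone, 30 (0.447%) in heart alone and 5674 (84.5%) in neither. Among heart-only regions with heart H3K4me3, 73.5% also had H3K4me3 in spleen although no spleen H3K27ac peak was called there, and 497 of these 917 regions had it in both spleen libraries. Among the 1009 spleen-only regions with spleen H3K4me3, 29.5% also had H3K4me3 in heart. The 73.5% takes either of 2 spleen lists and the 29.5% takes 1 heart list, so they are not like for like. With each H3K27ac library left out in turn, the heart-only share lay between 69.9% and 81.7%. The spleen-only share lay between 32.5% and 53.0%, the highest without heart replicate 2. With 1 library of each organ, it was 52.6% and 55.4% for heart replicate 1, and 38.8% and 39.6% for heart replicate 2. The heart-only share then lay between 75.3% and 80.6%. H3K4me3 of all tissues was absent from 1110 heart-only regions (46.4%), 5180 spleen-only regions (77.2%) and 728 regions in all 4 (6.62%).

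The share of heart-only regions with H3K4me3 depended on which heart library defined them. With heart H3K27ac replicate 2 left out, so that 1 heart library was enough, there were 8646 heart-only regions and 16.7% carried heart H3K4me3. Of the spleen-only regions of that setting, spleen H3K4me3 overlapped 17.8% and 20.1%, and of its heart-only regions 9.43% and 13.3%, so the order of the classes turned for the spleen libraries. With replicate 1 left out, 29.4% of the heart-only regions carried heart H3K4me3, and spleen H3K4me3 overlapped 12.2% and 14.7% of the spleen-only regions. In the classes from 1 heart and 1 spleen library, heart H3K4me3 overlapped 20.3% and 21.2% of heart-only regions when heart replicate 1 defined them, and 31.7% and 35.2% when replicate 2 did. Spleen H3K4me3 overlapped between 7.46% and 15.9% of the spleen-only regions of these pairs. The own-organ difference from regions shared by both organs ranged from -62.5 to -34.1 percentage points over the 4 H3K27ac libraries left out in turn, so heart-only regions were the lower class in each of these settings.

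The libraries of the other 6 tissues were not used to choose the classes, so the classes could be tested on them, with the tissue as the unit. H3K4me3 of the other tissues overlapped 36.7 ± 2.60% of heart-only regions, 8.17 ± 1.90% of spleen-only regions and 86.1 ± 1.91% of regions in all 4 (SD over tissues, n = 6). Heart-only regions ranged from 32.4% in pancreas to 39.1% in liver, and spleen-only regions from 5.99% in skeletal muscle to 11.3% in liver, so the 2 ranges did not overlap. Heart-only regions exceeded spleen-only regions by 28.5 ± 2.72 points (SD, n = 6), with that sign in 6 of 6 tissues, and the test that flips the sign of each tissue in turn (exact permutation test, two-sided) gave p = 0.03125 and an adjusted p of 0.03125. Against regions in all 4, heart-only regions differed by -49.5 ± 1.73 points and spleen-only regions by -78.0 ± 1.09 points (SD, n = 6), each with 1 sign in 6 of 6 tissues and each with p = 0.03125 and an adjusted p of 0.03125 by the same exact test. The value 0.03125 is the smallest that the 64 sign patterns of 6 tissues allow, and adjustment covered the 4 tests of this kind. The tissues were scored on the same regions, so p measures only the spread between tissues. Without heart H3K27ac replicate 2 the excess of heart-only over spleen-only regions was 1.26 points (adjusted p = 0.156, exact sign-flip permutation test, n = 6), whereas leaving out heart replicate 1 gave 19.8 points (adjusted p = 0.0417, the same test). In the classes from 1 heart and 1 spleen library the excess was 7.86 and 11.4 points for heart replicate 1 and 23.8 and 28.6 points for heart replicate 2, positive in 6 of 6 tissues in each pair (p = 0.03125, exact test). The deficit of both classes against regions in all 4 kept its sign in 6 of 6 tissues without replicate 2, at -63.5 points for heart-only and -64.8 for spleen-only, with an adjusted p of 0.0625 by that exact test because the adjustment then covers tests with higher p.

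**Figure D2:**
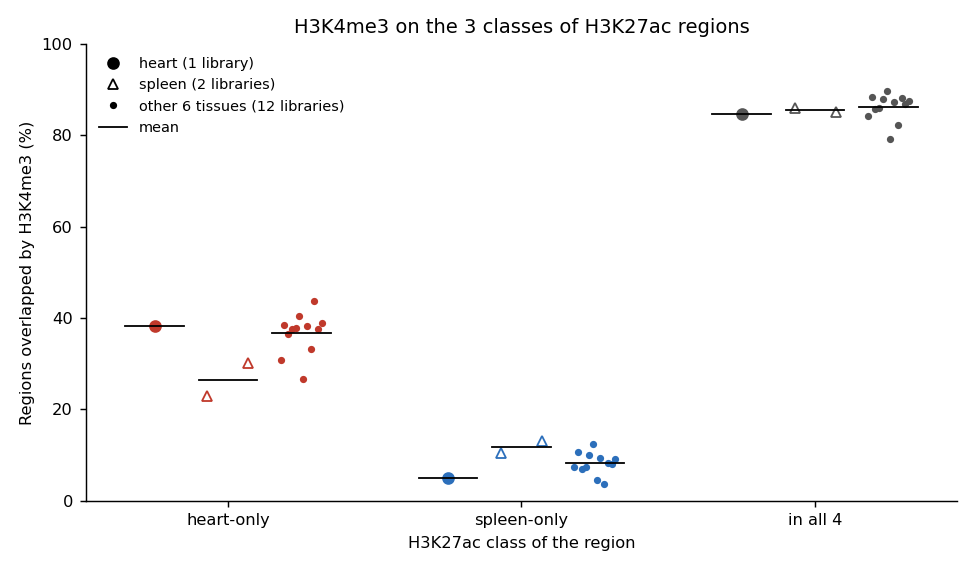
Percentage of heart-only, spleen-only and all-4 H3K27ac regions overlapped by H3K4me3, by library: heart (1 library, filled circle), spleen (2 libraries, triangles) and the other 6 tissues (12 libraries, small points), with a line at each mean. Every library shows the order spleen-only, heart-only, all 4 from low to high, with means of 8.17%, 36.7% and 86.1% over the other tissues.

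H3K27ac of the other tissues was also found more often on heart-only than on spleen-only regions. It overlapped 39.6 ± 5.35% of heart-only and 20.5 ± 8.44% of spleen-only regions (SD over tissues, n = 6), a difference of 19.0 ± 8.05 points that had 1 sign in 6 of 6 tissues (exact sign-flip permutation test, adjusted p = 0.03125). Regions in all 4 were overlapped at 92.0 ± 3.78%, from 87.3% in skeletal muscle to 96.1% in pancreas. The size and sign of this difference depended on which libraries defined the classes. Without heart replicate 2 it was -6.22 points (adjusted p = 0.156, exact sign-flip permutation test, n = 6), and without heart replicate 1 it was 7.54 points (adjusted p = 0.0625, the same test). Without spleen replicate 1 or 2 it was 30.3 or 33.0 points. Each of these settings also asks 1 library of one organ and 2 of the other. With 1 library of each organ the difference was 7.10 ± 4.04 and 5.66 ± 4.17 points for heart replicate 1 (with spleen replicates 1 and 2), and 20.2 ± 5.02 and 18.2 ± 5.32 points for heart replicate 2 (SD over tissues, n = 6). It was positive in 6 of 6 tissues in each of the 4 pairs (exact sign-flip permutation test, p = 0.03125).

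Skeletal muscle, the other striated muscle of the series, showed the widest gap of the 6 tissues between the classes. Its 2 libraries overlapped 46.0% and 44.1% of heart-only regions and 11.6% and 11.1% of spleen-only regions, a difference of 33.7 points. The class difference was 20.3 points in kidney, 20.04 in stomach, 14.8 in pancreas, 14.7 in colon and 10.6 in liver. Liver, which receives the venous blood of the spleen, had the highest share of spleen-only regions, 32.5% and 34.7%, followed by pancreas with 31.7% and 24.5%. Liver also had the longest lists of these tissues, 46317 and 51554 peaks. Skeletal muscle was the only tissue whose difference kept its sign in each of the 4 settings that left out a heart or spleen H3K27ac library, from 6.33 points without heart replicate 2 to 41.7 points without spleen replicate 2. Across the 4 pairs of 1 heart and 1 spleen library it was between 12.9 and 30.1 points. Without heart replicate 2 the other 5 tissues turned to between -14.8 points in liver and -4.91 in stomach. Skeletal muscle is 1 tissue, and it did not pass the check for a single tissue far from the others. Its gap to the next tissue was 0.581 of the whole range of the differences, against a critical value of 0.625.

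**Figure D3:**
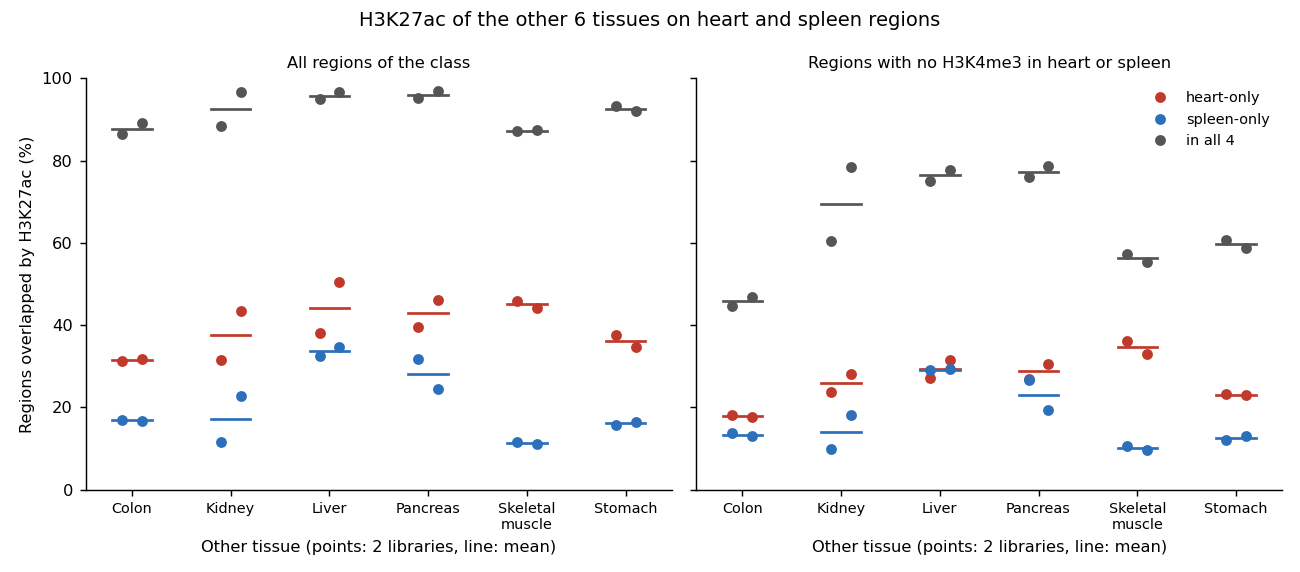
Percentage of heart-only, spleen-only and all-4 regions overlapped by H3K27ac in each of the other 6 tissues (2 points for 2 libraries, line at their mean), for all regions (left) and for regions with no H3K4me3 in heart or spleen (right). Skeletal muscle has the widest gap, 45.0% of heart-only against 11.4% of spleen-only regions, and in the right panel the liver means coincide at 29.3% and 29.2%.

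Enhancer-like regions, taken as those with no H3K4me3 in heart or spleen, gave a smaller gap between the classes. They comprised 1401 heart-only, 5674 spleen-only and 1164 all-4 regions. Of these, 291, 494 and 436 carried H3K4me3 in another tissue, so regions that are promoter-like elsewhere remained, in unequal shares of the classes. Other-tissue H3K27ac overlapped 26.6 ± 5.76% of the 1401 heart-only regions, 17.1 ± 7.40% of the 5674 spleen-only and 64.2 ± 12.4% of the 1164 all-4 regions (SD over tissues, n = 6). The difference of 9.54 points between heart-only and spleen-only was positive in 6 of 6 tissues (exact sign-flip permutation test, p = 0.03125, on a subset chosen after the data were seen). It did not hold in every setting. Without heart replicate 1 it was 1.88 points, positive in 3 of 6 tissues (p = 0.75, exact test), and without heart replicate 2 it was -4.54 points, positive in 1 of 6 (p = 0.1875, exact test). Without spleen replicate 1 or 2 it was 18.8 or 16.3 points, positive in 6 of 6. With 1 library of each organ it was 2.25 and 3.51 points for heart replicate 1, positive in 5 of 6 tissues (p = 0.21875 and 0.09375, exact test), and 8.74 and 10.3 points for heart replicate 2, positive in 6 of 6. In skeletal muscle the shares were 34.6% and 10.1%, and in liver 29.3% and 29.2%. The gap in skeletal muscle was thus 24.5 points in this subset and that in liver 0.115 points. Skeletal muscle kept a positive gap in all 8 of these settings, the smallest being 5.86 points without heart replicate 2. Among regions with H3K4me3, other-tissue H3K27ac overlapped 57.9 ± 5.64% of heart-only and 39.5 ± 14.9% of spleen-only regions (SD, n = 6), with 59.8% and 18.3% in skeletal muscle.

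More spleen-only than heart-only regions were without H3K27ac in the other tissues. No library of the other 6 tissues had H3K27ac on 343 heart-only regions (14.3%), 2098 spleen-only regions (31.3%) and 19 of the regions in all 4 (0.173%). All 12 libraries had it on 124 heart-only (5.18%), 51 spleen-only (0.760%) and 7746 all-4 regions (70.4%). The median region was marked in 4 of the 12 libraries for heart-only, 1 for spleen-only and 12 for all 4. The order of the organ classes turned without heart replicate 2, where 37.9% of heart-only and 26.3% of spleen-only regions were in no library of the other tissues. In the other 3 settings with a library left out it was kept, as in the 4 pairs of 1 library each, where heart-only shares lay between 18.3% and 34.5% and spleen-only shares between 37.4% and 43.5%.

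Regions shared with just 1 further tissue were most often in skeletal muscle for heart-only and in liver for spleen-only regions. Both libraries of exactly 1 other tissue held 576 heart-only and 1317 spleen-only regions. Of the 576, 264 (45.8%) were in skeletal muscle, 102 (17.7%) in liver, 67 (11.6%) in pancreas, 60 (10.4%) in kidney, 47 (8.16%) in colon and 36 (6.25%) in stomach. Of the 1317, 516 (39.2%) were in liver, 288 (21.9%) in pancreas, 187 (14.2%) in skeletal muscle, 177 (13.4%) in colon, 88 (6.68%) in kidney and 61 (4.63%) in stomach. The 229 all-4 regions of this kind gave the level to read these against, 35.8% in liver, 25.8% in pancreas, 15.3% in skeletal muscle and 4.80% in colon. The liver and skeletal muscle shares of spleen-only regions were thus close to those of the all-4 regions, their colon share was higher, and the skeletal muscle share of heart-only regions was well above them. Over the 4 settings with 1 library left out, the skeletal muscle share lay between 38.3% and 45.9% for heart-only, 13.9% and 17.4% for spleen-only, and 13.5% and 20.2% for all-4 regions. Without H3K4me3 in heart or spleen it was 48.1% for heart-only (188 of 391 regions) and 15.7% for spleen-only (170 of 1086).

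As background for the H3K4me3 share, heart and spleen were also set against each other tissue by the same rule. Heart regions absent from the partner tissue carried heart H3K4me3 in 38.3% of cases against spleen, 33.1% against skeletal muscle, 28.0% against colon and between 18.1% and 22.0% against liver, pancreas, kidney and stomach. Spleen regions absent from the partner carried spleen H3K4me3 in 11.7% of cases against heart (mean of 2 libraries), within the range from 5.99% against pancreas to 17.8% against skeletal muscle. The value for heart against spleen was the highest of the 7 partners of heart. These comparisons share the heart or spleen libraries and are given side by side without a test.

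Regions of 1 organ were shorter than shared ones. Merged regions had a median length of 653 bp for heart-only (quartiles 516 and 873 bp), 782 bp for spleen-only (572 and 1141 bp) and 1372 bp for all 4 (976 and 1885.5 bp), where merging of up to 4 peaks itself adds length. Single peaks avoid that. Heart peaks in heart-only regions had medians of 454 bp (replicate 1) and 463 bp (replicate 2), against 669 and 796 bp in regions of all 4, a difference of -274 ± 83.4 bp (SD, n = 2). Spleen peaks in spleen-only regions had medians of 566 and 532 bp, against 932 and 833 bp, a difference of -333.5 ± 46.0 bp (SD, n = 2). Among regions with no H3K4me3 in heart or spleen the gap was smaller in heart and in spleen replicate 2. Heart peaks there had medians of 461 and 432 bp in heart-only regions, against 513.5 and 506.5 bp in regions of all 4. Spleen peaks had 548 and 516 bp in spleen-only regions, against 895.5 and 579 bp. No peak in any list was shorter than 300 bp. H3K27ac chose the classes, so no test was made.

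Among regions of like length the classes from all 4 libraries kept their order in H3K4me3. In regions from 500 to under 1000 bp, of which there were 1470 heart-only, 3534 spleen-only and 2865 all-4, heart H3K4me3 overlapped 38.1%, 4.24% and 83.4%. Spleen H3K4me3 overlapped 22.1% and 30.5% of these heart-only, 7.02% and 9.90% of the spleen-only, and 83.3% and 84.3% of the all-4 regions. The mean over the other 6 tissues was 36.6%, 6.90% and 86.2%. Without heart replicate 2 that mean in this length range was 23.3% of heart-only and 15.6% of spleen-only regions, and heart H3K4me3 overlapped 23.6% and 12.6%. Spleen H3K4me3 then overlapped 12.8% and 18.3% of heart-only against 14.8% and 17.7% of spleen-only regions, so the order was kept in spleen replicate 2 and turned in replicate 1. Long regions of at least 2000 bp made up 0.669% of heart-only (16 regions), 5.69% of spleen-only (382 regions) and 21.6% of all-4 regions. Among the long spleen-only regions 32.7% and 33.8% carried H3K4me3 of spleen replicates 1 and 2, and 7.59% carried heart H3K4me3.

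**Figure D4:**
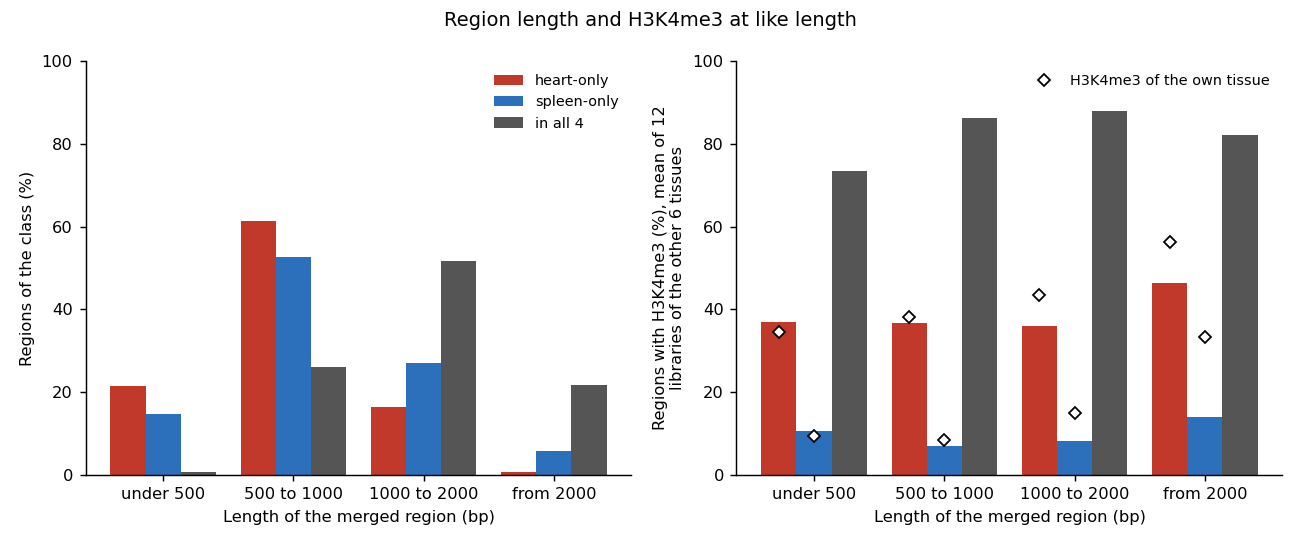
Distribution of merged regions over 4 length bins in bp for each class (left, percentage of the class) and percentage of regions with H3K4me3 per bin (right; bars, mean of the 12 libraries of the other 6 tissues; diamonds, H3K4me3 of the organ itself, mean of 2 libraries for spleen). In the bin from 500 to under 1000 bp the bars stand at 36.6%, 6.90% and 86.2%, in the same order as over all regions.

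The H3K4me3 peaks themselves were also shorter on regions of 1 organ. The heart H3K4me3 peaks had a median length of 708.5 bp on heart-only regions, 935 bp on regions in all 4 and 487 bp on spleen-only regions. Spleen H3K4me3 peaks had medians of 515 and 632 bp (replicates 1 and 2) on spleen-only regions, 859.5 and 1025 bp on regions in all 4, and 580 and 706 bp on heart-only regions. In both spleen libraries the H3K4me3 peaks were thus longer on heart-only than on spleen-only regions.

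Peaks of the organ classes were also weaker within their own lists. The authors' fold enrichment of each peak was turned into its percentile within its list. Heart-only regions had median percentiles of 39.6 and 33.0 in heart replicates 1 and 2, against 70.1 and 69.7 for regions in all 4 and 26.8 and 25.7 for regions in that library alone. Spleen-only regions had 42.6 and 39.1 in spleen replicates 1 and 2, against 79.6 and 74.6, and 28.6 and 27.3. Without H3K4me3 the medians were 34.2 and 25.3 for heart-only regions, against 38.6 and 31.5 for regions in all 4 in the heart lists. For spleen-only regions they were 39.5 and 37.4, against 62.5 and 42.4 in the spleen lists. With H3K4me3 they were 45.3 and 44.8 for heart-only regions, against 73.2 and 73.5, and 57.0 and 50.1 for spleen-only regions, against 81.5 and 77.7. The gap to regions in all 4 was thus smaller without H3K4me3, and it stayed widest in spleen replicate 1. Over all their regions both organ classes thus lay between regions of a single library and regions of all 4. H3K27ac chose the classes, so the rule itself favours this order, and no test was made. Heart-only regions without H3K4me3 were at 25.3 in replicate 2, just under the 25.7 of regions in that library alone.

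By position, most spleen-only regions were not overlapped by H3K4me3. Against the merged H3K4me3 peaks of both organs, 15.5% of spleen-only regions were overlapped, 26.8% lay within 10 kb, 42.8% between 10 and 100 kb and 13.7% beyond 100 kb. For heart-only regions the shares were 41.5%, 17.4%, 27.9% and 12.4%, and for regions in all 4 they were 89.4%, 4.58%, 4.72% and 1.1%. These shares are of all regions of a class, so those at a distance also fall as the overlapped share rises. The regions not overlapped had median distances of 29.5 kb for heart-only, 24.9 kb for spleen-only and 13.1 kb for all 4. The remainder lay on sequences with no H3K4me3 peak.

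Spleen-only regions often lay near one another, and so did regions in all 4, of which 62.4% had another region in all 4 within 50 kb. Many such neighbours were close. Within 12 kb, 46.9% of spleen-only, 25.4% of heart-only and 37.0% of all-4 regions had another region of their class. Within 50 kb of a spleen-only region, 62.2% had another spleen-only region and 12.5% a heart-only region. Of heart-only regions, 34.5% had another heart-only region within 50 kb and 25.4% a spleen-only region, although spleen-only regions were 2.81 times as numerous. Of regions in all 4, 34.0% had a spleen-only and 14.7% a heart-only region within 50 kb. Heart-only regions thus had a heart-only neighbour more often than regions in all 4 did, and spleen-only regions a spleen-only neighbour, as a description with no test of chance spacing. In windows of 100 kb, 1923 held a heart-only region, 4131 a spleen-only region and 485 both, and 1 window held at least 3 of each. Of the heart-only windows, 25.2% held a spleen-only region and 45.7% a region in all 4. Of the spleen-only windows, 11.7% held a heart-only region and 49.8% a region in all 4. At least 3 regions of the class lay in 68 heart-only and 620 spleen-only windows.

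**Figure D5:**
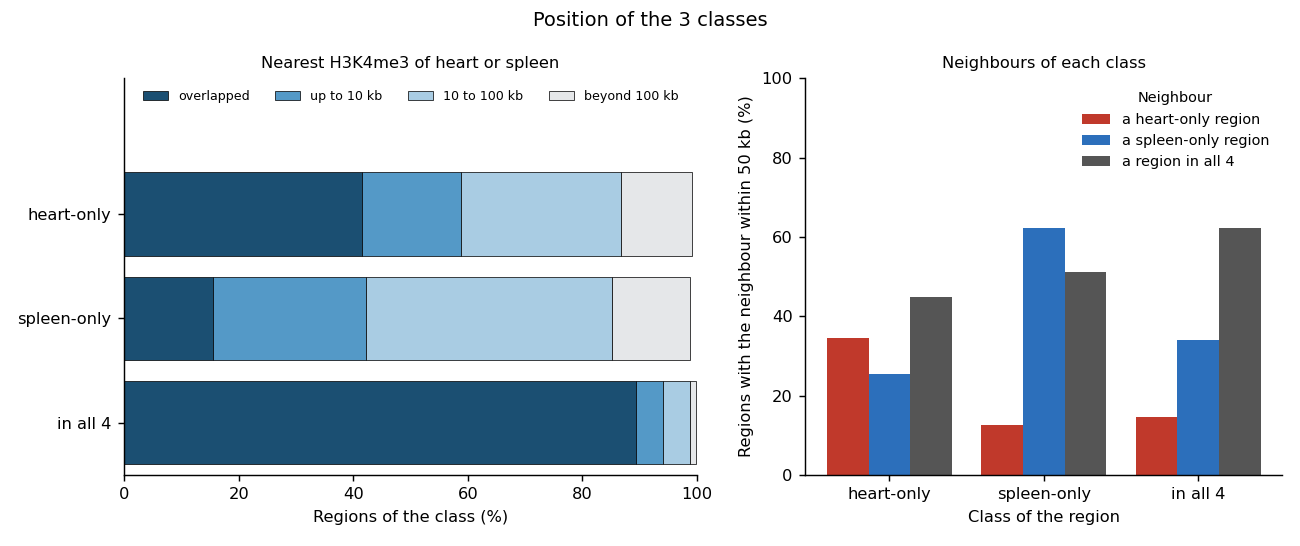
Distance from regions of each class to the nearest H3K4me3 peak of heart or spleen (left, percentage of the class; bars end short of 100% because some regions lie on sequences with no H3K4me3 peak) and percentage of regions with a neighbour of each class within 50 kb (right). Spleen-only regions have a spleen-only neighbour in 62.2% of cases, heart-only regions a heart-only neighbour in 34.5%, and regions in all 4 another such region in 62.4%.

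The classes were spread over all chromosomes. Chromosome 22 held 5.14% of heart-only, 3.68% of spleen-only and 6.67% of all-4 regions, chromosome 7 held 8.27%, 6.66% and 6.33%, and chromosome 6 held 3.84%, 5.21% and 3.91%. Of all merged regions, chromosomes 22, 7 and 6 held 4.23%, 6.56% and 4.81%. The X chromosome held 30 heart-only regions (1.25%), 147 spleen-only regions (2.19%) and 226 in all 4 (2.05%), against 2.17% of all merged regions. The sex of the source animals is not given in the labels, so these X counts are values only.

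Regions of a class were joined when they lay within 12 kb, and the clusters with the longest covered length are given below in calJac3 coordinates. The values are kilobases of peak within the cluster's span, which may include peaks of other regions. The longest heart-only cluster, chr5:58062222-58080115, held 9 regions over 17.9 kb. Heart H3K27ac covered 7.11 and 6.62 kb of it (6.86 ± 0.35 kb, SD, n = 2), spleen H3K27ac 0 kb in both libraries, heart H3K4me3 1.01 kb and spleen H3K4me3 0 kb. Both kidney and both liver libraries and 1 pancreas library had H3K27ac there, and no skeletal muscle library did. The next, chr1:180772964-180800431, held 5 regions over 27.5 kb, with 7.95 and 6.49 kb of heart H3K27ac against 1.32 and 0.341 kb in spleen, and 3.95 kb of heart H3K4me3 against 2.04 and 0.300 kb. The third, chr3:15941466-15960230, held 6 regions, with 4.58 and 6.03 kb of heart H3K27ac, 0.426 and 0 kb of spleen H3K27ac, 2.69 kb of heart H3K4me3 and none in spleen. All 3 of these clusters had H3K4me3 in heart and H3K27ac in both liver libraries. H3K4me3 was also present there in 7, 9 and 10 of the 12 libraries of the other 6 tissues, in the order given.

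The longest heart-only clusters with no H3K27ac in the other 6 tissues were small. At chr5:127766687-127769415 the heart libraries covered 2.53 and 1.39 kb, at chr13:2374600-2376791 they covered 2.19 and 0.474 kb, and at chr4:118261416-118264407 they covered 1.32 and 1.88 kb. No H3K4me3 library of any tissue had a peak in these 3 places, and neither spleen library had H3K27ac.

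The spleen-only clusters covered more sequence, 10.5, 10.5 and 9.57 kb against 7.46, 5.34 and 4.77 kb in the heart-only clusters, although the chromosome 1 heart-only cluster had the longest span. At chr1:186469615-186494270, 5 regions over 24.7 kb, spleen H3K27ac covered 5.28 and 12.2 kb (8.73 ± 4.88 kb, SD, n = 2), and heart H3K27ac and heart H3K4me3 0 kb. Spleen H3K4me3 covered 0.363 and 1.22 kb, and no H3K4me3 library of the other 6 tissues had a peak. At chr4:3473217-3495506, 8 regions over 22.3 kb, spleen H3K27ac covered 8.21 and 8.24 kb with none in heart, and spleen H3K4me3 0 and 1.55 kb. At chr12:86775273-86792813, 5 regions over 17.5 kb, spleen H3K27ac covered 9.52 and 7.49 kb with none in heart, and spleen H3K4me3 4.61 and 4.19 kb with none in heart. Of the 12 H3K4me3 libraries of the other 6 tissues, 1 had a peak at the chromosome 4 cluster and 8 at the chromosome 12 cluster. Pancreas had H3K27ac in both libraries at the chromosome 4 and 12 clusters and in 1 library at the chromosome 1 cluster, and skeletal muscle in none of the 3. Colon had it in both libraries at the chromosome 12 cluster. Kidney, liver and stomach had it at the chromosome 1 and 4 clusters, though not in both libraries.

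Of the spleen-only clusters with no H3K27ac in the other tissues, the longest was chr2:66915261-66931586, with 11.01 and 6.82 kb in spleen, 0 and 0.426 kb in heart, and H3K4me3 in heart, both spleen libraries and 9 of the 12 libraries of the other tissues. The next, chr12:32831290-32836377, had 4.27 and 2.25 kb of spleen H3K27ac, none in heart, and 0.384 kb of H3K4me3 in spleen replicate 1 alone. The third, chr2:170080990-170086115, had 1.67 and 3.76 kb of spleen H3K27ac and no H3K4me3 in any library. In 401 of 4824 spleen-only clusters there were at least 3 regions, against 50 of 2050 heart-only clusters. The spleen-only class is the larger, and cluster size was not compared at equal class size.

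Read from the H3K4me3 side, the promoter maps of the 2 organs were largely shared. Spleen H3K4me3 met 87.8% of the heart H3K4me3 peaks, and heart H3K4me3 met 85.4% and 81.2% of the peaks of spleen replicates 1 and 2. Peaks not met were short, with a median of 386 bp against 801 bp in heart, 393 against 783 bp in spleen replicate 1 and 419 against 909 bp in spleen replicate 2. Of the heart H3K4me3 peaks, 65.2% had H3K27ac in both heart libraries and 19.4% in neither. For spleen replicates 1 and 2 the shares were 72.2% and 63.6% in both spleen libraries and 15.8% and 24.4% in neither. In heart, 910 of 18231 H3K4me3 peaks had H3K27ac in both heart and neither spleen library. In the spleen lists, 937 of 16946 and 958 of 18658 had it in both spleen and neither heart library. Counted on H3K4me3 peaks, the organ classes were thus near each other in number, whereas over all H3K27ac regions spleen-only was 2.81 times heart-only. The H3K4me3 counts were not repeated with a library left out. The heart count needs a peak in heart H3K27ac replicate 2, whose own regions carried H3K4me3 more often than those of heart replicate 1.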

How the data were processed

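Titles gave the tissue, mark and replicate of each heart and spleen library. The authors deposited 1 narrowPeak list per library, so replicates were not pooled before calling. The build, calJac3, was read from the peak names. The submitters' processing notes name MACS2 2.1.1.20160309, Bowtie 1.1.2, bedtools 2.26 and SAMtools 1.3.1 with no role stated. Fold enrichment, a ratio the authors deposited for each peak, served only to rank peaks within 1 list. The deposited −log10 q was used for 1 alternative threshold. A deeper or more enriched library gives a longer list, read depth is unknown, and overlap classes move with list length.

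Lists were compared in numpy 2.4.6 and scipy 1.17.1 under Python 3.11.15, with matplotlib 3.10.9 for figures, and peaks overlapped when they shared 1 bp or more. Differences in the other 6 tissues were tested with two-sided exact sign-flip permutation tests over tissue means, adjusted by Benjamini-Hochberg over 4 tests, with a threshold of 0.05. Overlap counts and tests were first tested on simulated lists. Named regions are, on assembled chromosomes, the 3 clusters per class with the longest covered length, and the 3 with no H3K27ac in the other tissues. Alternatives were the 20000 strongest peaks, a floor of 5 on the −log10 q, assembled chromosomes, equal list lengths, 50% overlap, central 300 bp or regions extended by 1000 bp, a block on the replicate number, and omission of each library or tissue. The members, lists and comparisons were chosen with earlier results of these data known. The analyses of regions without H3K4me3 and of 500 to under 1000 bp, the classes from 1 heart and 1 spleen library, and the values per tissue or subset with a library left out, were added after seeing the data. Genes and sequences were not used, since the reference tables are of a different assembly from the peaks. The 8 input samples are not analysed here.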

Additional observations from a re-analysis of the deposited data

Results flagged for a closer look

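The difference in other-tissue H3K27ac between heart-only and spleen-only regions, 19.0 percentage points, and that in other-tissue H3K4me3, 28.5 points, stand out because the test of the difference itself passed in each (two-sided exact sign-flip permutation test, n = 6, adjusted p = 0.03125, the smallest possible). The size of both depended on which H3K27ac libraries defined the classes. Without heart replicate 2 the first was -6.22 points and the second 1.26 points, each with an adjusted p of 0.156 by the same exact test. Without heart replicate 1 they were 7.54 (adjusted p = 0.0625) and 19.8 points (adjusted p = 0.0417) by that exact permutation test. These settings ask 1 heart library and 2 spleen libraries. When 1 library of each organ defined the classes, a setting added after seeing the data, the first was 5.66 to 7.10 points for heart replicate 1 and 18.2 to 20.2 for heart replicate 2, and the second 7.86 to 11.4 and 23.8 to 28.6, positive in 6 of 6 tissues in each pair.

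A single tissue far from the other 5 was looked for in 8 sets of values, the shares of each of the 3 classes in each mark and the difference between the organ classes in each mark. None passed the critical value. In the H3K27ac differences skeletal muscle, at 33.7 points, had a gap to the next tissue of 0.581 of the whole range, against a critical value of 0.625.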

How the results depend on the processing

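Among the alternatives, the 20000 strongest peaks and equal list lengths moved the number of spleen-only regions from 6713 to 2870 and 3882, and the cause was not tested beyond list length, which both set. The own-organ H3K4me3 difference from regions in all 4 moved in heart from -46.3 points to -37.4 (20000 strongest peaks), -44.1 (central 300 bp) and -43.0 (regions extended by 1000 bp), and in spleen from -73.9 to -71.1 (20000 strongest) and -70.1 (extended). Peak length of spleen-only minus all-4 regions moved from -333.5 to -264 bp with the 20000 strongest peaks. No direction changed under these settings.

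Leaving out each H3K27ac library in turn gave 2971 to 8646 heart-only, 7769 to 18020 spleen-only and 11681 to 12406 shared regions, by construction more where 1 library suffices. The difference in other-tissue H3K27ac between heart-only and spleen-only regions ran from -6.22 to 33.0 points, that in H3K4me3 from 1.26 to 39.4, heart-only minus all-4 H3K4me3 from -63.5 to -36.4 and spleen-only minus all-4 from -78.6 to -64.8. The reversal to -6.22 points, and losses of the call to adjusted p = 0.156, 0.156, 0.0625 and 0.0625 (exact sign-flip permutation tests, n = 6), came without heart replicate 2, and 7.54 points (adjusted p = 0.0625, exact test) without heart replicate 1. The cause was not tested. With 1 library of each organ both differences between heart-only and spleen-only regions kept their sign and their call in all 4 pairs (5.66 to 20.2 and 7.86 to 28.6 points). Own-organ differences ran from -62.5 to -34.1 points in heart and -76.4 to -61.6 in spleen, and lengths from -360 to -244 bp and -434 to -297.5 bp. Leaving out 1 of the other 6 tissues gave 16.1 to 20.7, 27.7 to 29.1, -50.0 to -49.0 and -78.3 to -77.7 points. All these exact tests then had p = 0.0625, the smallest that 5 tissues allow.

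With the replicate number as a block, the log2 ratio of list length was -0.37 ± 0.07 (SD, n = 2 pairs; exact sign-flip permutation test, p = 0.5, the smallest possible). The replicate 1 minus replicate 2 calls of heart and spleen correlated at 0.013 over merged regions. Of the regions in just 1 heart and 1 spleen library, 1331 had the same replicate number in both and 950 different numbers. The labels do not say that a number marks a shared animal or day, so it was not taken as a pairing. The ratio was not computed for the 20000 strongest peaks, which sets the lists equal. Regions of 500 to under 1000 bp gave 22.0 and 29.7 points between the classes, each positive in 6 of 6 tissues.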

Other observations

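On the Y chromosome, heart H3K27ac lists held 29 and 29 peaks and spleen lists 50 and 34, and heart-only, spleen-only and all-4 regions numbered 1, 11 and 14. These were 0.0418%, 0.164% and 0.127% of their classes, against 0.120% of all merged regions. At spleen-only regions under 500 bp, heart H3K4me3 overlapped 7.16% of 991 regions, and at those from 500 to under 1000 bp 4.24% of 3534. Of the 18231 heart H3K4me3 peaks, 372 had no H3K27ac in either heart library but H3K27ac in both spleen libraries. Of the 16946 and 18658 spleen H3K4me3 peaks (replicates 1 and 2), 557 and 681 had none in either spleen library but H3K27ac in both heart libraries.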
